A study of Mus musculus with 12 samples.

Results

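The profile described here is that of primary mouse oligodendrocyte progenitor cells that received vehicle alone, taken from the 3 libraries titled Veh-1, Veh-2 and Veh-3 out of 12 libraries in the series. Per the labels, the cells were primary cells from wild-type mouse brain, held for 12 h with the solvent DMSO, and no hemin, interleukin-10 or stattic was given. The other 9 libraries, 3 in each of 3 groups, received 50 µM hemin for the same 12 h, alone, with 10 ng/mL interleukin-10, or with 10 ng/mL interleukin-10 and 2.5 µM stattic, and were not used here. The age of the mice, the method of cell isolation, the medium and the days in culture are not stated in the labels. The labels also do not say whether the 3 libraries came from separate animals or cultures, so the spread between them may be technical. With a single group there was no test between conditions, and every value below is a level or a spread between these 3 libraries.

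Oligodendrocyte progenitor cells are the dividing glial precursors of the brain. They carry the platelet-derived growth factor receptor PDGFRA and the proteoglycan NG2, encoded by Cspg4, and are specified by the transcription factors OLIG2 and SOX10. On leaving the cell cycle they pass through a committed stage marked by the receptor GPR17 and then switch on myelin genes such as Mbp and Mag. Cultures of such cells often hold astrocytes and microglia, so the markers of these cells were examined as well.

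Values are FPKM, fragments scaled to the length of the transcript and the depth of the library, which allows levels of different genes to be compared per length. Where 3 values are given together they are those of replicates 1, 2 and 3 in that order. Expected counts summed to 9965721, 10075370 and 9680790, over 15369, 15339 and 15051 listed genes. Across the 12740 to 12868 genes compared in each pair of libraries, the Spearman correlation was 0.985 between replicates 1 and 2, 0.980 between 1 and 3 and 0.976 between 2 and 3. Counts differed between every pair by more than sampling noise, with a chi-square per degree of freedom of 15.2 for replicates 1 and 2, 27.5 for 1 and 3 and 31.2 for 2 and 3. Replicate 3 thus lay farthest from the others, and most levels below are given library by library. Ranks and words such as highest or led refer to the mean of the 3 libraries unless a library is named.

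In all, 16299 genes were listed in at least 1 vehicle library and 14279 in all 3. A mean level of at least 1 FPKM was reached by 11750 genes, 72.1% of those listed, at least 10 FPKM by 7008 genes (43.0%), at least 100 FPKM by 700 genes (4.29%) and at least 1000 FPKM by 30 genes. The 100 highest genes of each library held 23.0%, 23.4% and 22.7% of its summed FPKM. Protein-coding genes made up 97.6% of the listed genes and long noncoding RNAs 0.902%. These are shares of the genes listed, not of the RNA in the cells. Malat1, Neat1, Meg3 and Xist were not among the listed genes. As the annotation used for counting is not given, this does not show that the cells lacked these transcripts.

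The most abundant transcripts were those of translation, the cytoskeleton and a small number of glial genes. Eef1a1, which encodes the elongation factor that brings aminoacyl-tRNA to the ribosome, ranked first at 4549.9 ± 135 FPKM (SD, n = 3). Col19a1, a gene for a nonfibrillar collagen, ranked second at 3593, 3529 and 3159.7 FPKM, a spread of 6.82% of its mean. Fabp7, the brain fatty acid binding protein of radial glia and early progenitors, ranked 3 at 3865, 2336 and 3382 FPKM and was lowest in replicate 2. Tuba1a, an alpha tubulin, Ckb, the brain creatine kinase, and Dbi, which binds acyl-CoA, followed at means of 2055, 1998 and 1987 FPKM.

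Ribosomal protein genes took 12 of the 30 highest places and 11.5%, 12.6% and 13.2% of the summed FPKM. Among the remaining leaders, the chaperone gene Hspa8 stood at 1643, 1798 and 1221 FPKM and the actin-sequestering gene Tmsb4x at 1665, 1023 and 1448 FPKM. Apoe, the lipid carrier that glia secrete, was at 1782, 2113 and 247 FPKM, and replicate 3 was far below the other two. Mbp, which encodes myelin basic protein, ranked 20 at 1144, 1821 and 539.6 FPKM. Ddx31, an RNA helicase gene, stood at 1045, 986 and 906 FPKM, and 2 of its 4 transcripts in the deposited annotation were marked as new by their identifiers. Gapdh was at 1052, 1054 and 1029 FPKM and Actb at 960.4, 922 and 845 FPKM, with spreads of 1.34% and 6.49% of their means, below the lower quartile of 6.85% over the 9824 genes with at least 100 expected counts on average.

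**Figure D1:**
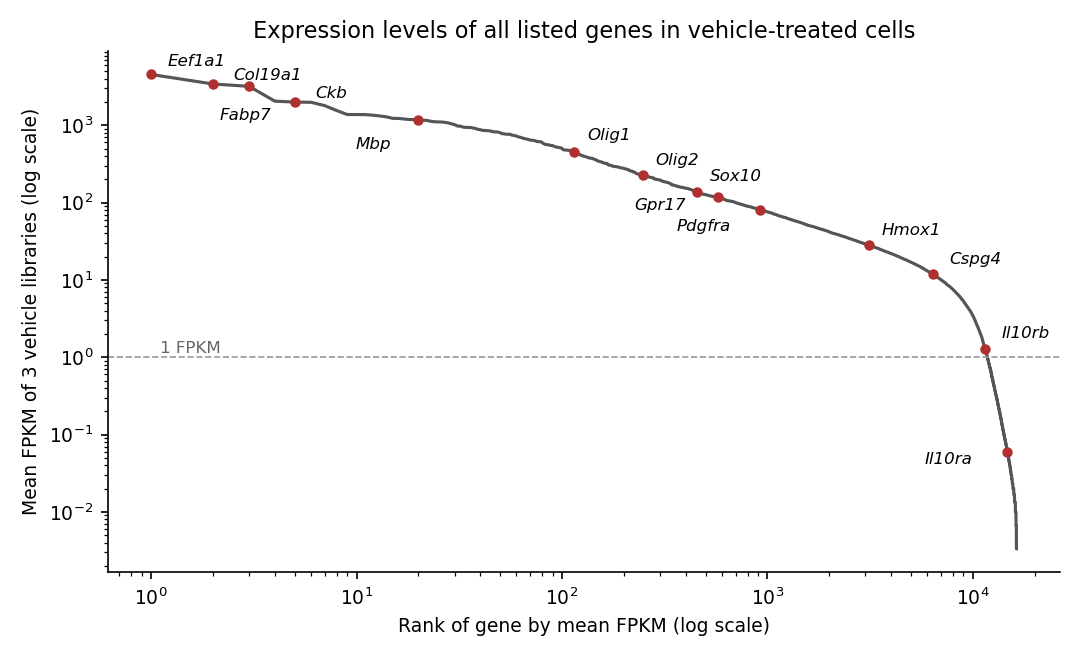
Mean FPKM of the 3 vehicle libraries against rank for all listed genes, both on log scales, with the dashed line at 1 FPKM and red points for named genes. Eef1a1, Col19a1 and Fabp7 head the curve, Olig1, Olig2 and Sox10 lie above 100 FPKM, and Il10ra lies below 0.1 FPKM.

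Genes of the progenitor stage were present at high level. Of 25 listed genes of this stage, 24 reached 1 FPKM, 20 reached 10 and 6 reached 100, and their median level was 32.3 FPKM. The shares over all listed genes were 72.1%, 43.0% and 4.29%. The highest was Ptprz1, a receptor tyrosine phosphatase and proteoglycan of glial precursors, at 384, 349 and 412 FPKM. Bcan, the brain proteoglycan brevican, was at 356, 304 and 263 FPKM, and Cd9, a tetraspanin, at 188, 123 and 139 FPKM. These genes differed by less than 1.6 times between libraries.

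The defining receptor Pdgfra was at 51.6, 67 and 124 FPKM. Its level in replicate 3 was 2.40 times that in replicate 1 and 1.85 times that in replicate 2. Cspg4 was lower, at 9.81, 8.77 and 16.9 FPKM, and was likewise highest in replicate 3. Pdgfra exceeded Cspg4 by 6.73 ± 1.29 times in FPKM (SD, n = 3). Neu4, a sialidase gene of progenitors, was at 6.2, 0.7 and 4.83 FPKM, lowest in replicate 2. Tmem100 and Gpr37l1 were also lowest there, at 8.2, 4.26 and 14.9 FPKM and 22.1, 7.17 and 19.8 FPKM.

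The progenitor genes were not uniform across libraries. Of the 24 members that were among those 9824 genes, 9 differed by 2 times or more between the highest and lowest library, where 6.40% of the 9824 did. Replicate 3 was highest for 13 of the 24 and replicate 2 lowest for 13, against 45.9% and 37.2% of the 9824 genes. The summed level of the list was 1799.7, 1516 and 1766 FPKM, which is lowest in replicate 2.

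Genes of the committed, premyelinating stage were present at a similar level, with a median of 29.3 FPKM. All 18 reached 1 FPKM, 14 reached 10 and 4 reached 100, against 72.1%, 43.0% and 4.29% of all listed genes. Sirt2, a deacetylase gene of the lineage, was at 684, 616 and 446 FPKM. Bcas1, which marks oligodendrocytes that are starting to myelinate, was at 636, 372 and 436 FPKM, and Fyn, a kinase of process outgrowth, was at 215, 151 and 237 FPKM. The level of Bcas1 was highest in replicate 1, and that of Sirt2 was lowest in replicate 3.

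Gpr17, the receptor that defines this stage, was at 144, 46.1 and 161 FPKM. Replicates 1 and 3 were close to each other and replicate 2 was 0.320 times replicate 1. Bmp4, a secreted signal made by differentiating progenitors, was likewise lowest in replicate 2, at 41.9, 13.7 and 31.4 FPKM. Lims2, an adaptor of integrin signalling, was at 15.5, 4.63 and 24.1 FPKM. The sum over the list was 2177, 1573 and 1655 FPKM, and 3 of 17 members with enough counts spread by 2 times or more, against 6.40% of all genes at that depth.

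Some myelin transcripts were already abundant, though the median level of the list was 11.4 FPKM. Their median spread between libraries was 34.7% of the mean, against 27.6% for progenitor and 24.9% for committed precursor genes. Of 36 genes 35 were listed, 27 reached 1 FPKM, 18 reached 10 and 4 reached 100. Over all listed genes 72.1% reached 1 FPKM, 43.0% reached 10 and 4.29% reached 100. After Mbp, the highest on average was Cnp, the myelin phosphodiesterase, at 461, 395 and 266 FPKM. Mag, a myelin adhesion protein gene, was at 88.3, 153 and 35.9 FPKM. Replicate 2 was highest and replicate 3 lowest for both Mbp and Mag.

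Genes of the last steps of myelination stayed low. Mobp, a gene of compact myelin, was at 0.79, 4.96 and 0.19 FPKM, and Mal, a myelin lipid raft protein gene, at 0.6, 2.21 and 0.15 FPKM. Mog, which is made late on the outer myelin surface, was at 0.19, 0.12 and 0.19 FPKM. Klk6 was not listed. Mobp and Mal were highest in replicate 2, as Mbp was, while Mog stayed under 0.2 FPKM in all 3 libraries.

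Over the myelin list, 12 of 22 members with enough counts spread by 2 times or more, against 6.40% of all genes at that depth. Replicate 3 was lowest for 16 of the 22, against 28.2% of all genes at that depth, and replicate 2 was highest for 12, against 29.3%. The summed level was 2743, 3628 and 1449 FPKM. Without replicate 3 the mean sum was 3185 FPKM, against 2606 ± 1096 FPKM over all 3 (SD, n = 3). The ratio of Mbp to Pdgfra was 22.2 in replicate 1, 27.2 in replicate 2 and 4.37 in replicate 3. In a bulk library a lower level from fewer cells of a stage and from less RNA per cell cannot be told apart.

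**Figure D2:**
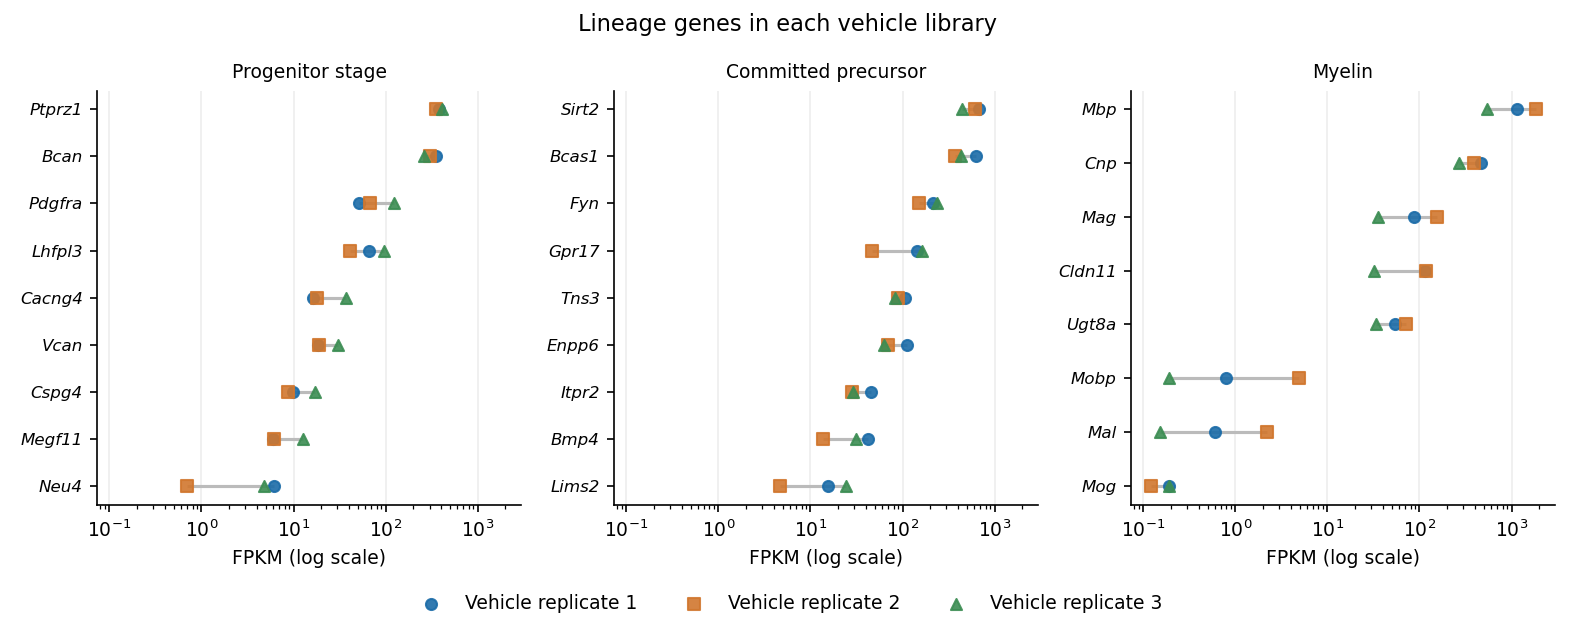
FPKM on a log scale of 9 progenitor, 9 committed precursor and 8 myelin genes in each of the 3 vehicle libraries, 1 point per library, with grey lines from the lowest to the highest. Pdgfra and Cspg4 are highest in replicate 3, Gpr17, Bmp4 and Neu4 are lowest in replicate 2, and Mbp and Mag are highest in replicate 2 and lowest in replicate 3.

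The transcription factors of the lineage led all others. Among 941 listed genes with a transcription factor term in the deposited annotation, 677 (71.9%) reached 1 FPKM and 7 reached 100. The shares over all listed genes were 72.1% and 4.29%, so as a class these genes were not high. Olig1 was first at 344, 421 and 586 FPKM and Olig2 second at 166, 219 and 296 FPKM. Both were lowest in replicate 1 and highest in replicate 3. Their ratio held steady, at 1.99 ± 0.07 (SD, n = 3).

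Sox2, a factor of stem and precursor cells, ranked 3 among them at 178, 144 and 189 FPKM. Sox10, which drives both progenitor and myelin genes, was at 148, 114 and 151 FPKM, and Thra, the thyroid hormone receptor alpha, at 177, 157 and 125 FPKM. Thrb, the beta form, was at 0.87, 1.12 and 0.63 FPKM, so Thra exceeded it by 181 ± 35 times in FPKM. Sox8, a close relative of Sox10, was at 59.4, 38.8 and 84.5 FPKM, and Sox9, a factor of glial precursors and astrocytes, at 38.8, 41.3 and 30.5 FPKM. Sox10 exceeded Sox9 in each library, by 3.81, 2.76 and 4.96 times.

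Factors that hold progenitors back were present together with one that drives them forward. Myrf, the activator of myelin genes, was at 68.7, 55 and 35.6 FPKM, in the order of the Cnp levels. Hes5, a Notch target that represses differentiation, was at 75.2, 21 and 76.3 FPKM, and Id3, an inhibitor of basic helix-loop-helix factors, at 205, 43.5 and 135 FPKM. Both were lowest in replicate 2, Hes5 by 3.59 times and Id3 by 4.71 times against replicate 1. Nkx2-2, a factor of the ventral lineage and of early differentiation, was also lowest there, at 34.8, 16.2 and 48.1 FPKM. Of the 44 lineage factors with enough counts, 7 spread by 2 times or more, against 6.40% of all genes at that depth. Replicate 2 was lowest for 22 of the 44, against 37.2%.

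The 300 bases around the RefSeq start of Olig2 and of Pdgfra, 250 before and 50 after, are shown because they are the factor and the receptor that define the cells, and both were highest in replicate 3. They are from the supplied RefSeq promoter table on build GRCm38.p6, Olig2 at chr16:91225300-91225599 on the plus strand and Pdgfra at chr5:75152001-75152300 on the plus strand. No source used here gives the build of the deposited files. The motifs searched, on both strands, were the E-box CAGCTG, the SOX motif AACAAT, the STAT motif TTCNNNGAA and the TATA motif TATAAA, and matches stand in capitals.
Olig2: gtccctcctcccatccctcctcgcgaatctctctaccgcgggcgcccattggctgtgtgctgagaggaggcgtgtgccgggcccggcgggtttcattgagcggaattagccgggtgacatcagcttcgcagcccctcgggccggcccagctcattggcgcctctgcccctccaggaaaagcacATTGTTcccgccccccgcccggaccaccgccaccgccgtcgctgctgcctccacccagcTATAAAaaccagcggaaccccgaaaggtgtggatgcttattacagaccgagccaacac
Pdgfra: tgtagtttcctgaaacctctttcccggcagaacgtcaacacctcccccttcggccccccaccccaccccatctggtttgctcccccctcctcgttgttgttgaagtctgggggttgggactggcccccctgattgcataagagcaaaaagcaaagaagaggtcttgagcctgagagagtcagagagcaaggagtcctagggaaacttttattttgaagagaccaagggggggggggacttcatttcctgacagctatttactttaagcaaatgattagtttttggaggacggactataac
The Olig2 window held 1 SOX match on the minus strand, 67 bases before the start, and 1 TATA match, 8 bases before it, with no overlap between them. The Pdgfra window held none of the 4 motifs. Olig2 had 65% G and C with 25 CpG, and Pdgfra had 51% with 5 CpG. Of all 32851 promoters in the table, 10.7% held the SOX motif, 13.6% the TATA motif, 16.3% the E-box and 8.30% the STAT motif. A match is a description of the letters only.

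Genes of regional identity were mostly low, and the members given first were picked as the higher forebrain factors. Of 27 genes 23 were listed, 12 reached 1 FPKM and 2 reached 10, against 72.1% and 43.0% of all listed genes. Lhx2, a factor of the cortical field, was at 42.9, 26.4 and 47.2 FPKM. Dlx1 and Emx2, factors of the ventral and dorsal forebrain, were at 8.62, 11.2 and 6.03 FPKM and 6.51, 7.04 and 6.61 FPKM. Other forebrain factors were lower, Emx1 at 1.63, 0.56 and 0.49 FPKM, Lhx6 at 0.76, 0.22 and 0.2 FPKM and Nkx2-1 at 0.16, 0.12 and 0.13 FPKM, and Lhx8 was not listed. Among the midbrain and hindbrain factors, Irx1 was at 0.67, 1.11 and 2.32 FPKM and En2 at 0.9, 1.54 and 0.56 FPKM, and En1, Pax2 and Pax3 were not listed. The forebrain factors thus lay on both sides of En2 and Irx1. Hoxc13, one of the Hox genes that mark the hindbrain and spinal cord, was at 0.04, 0 and 0 FPKM.

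The Sox, Fox, Krueppel-like and nuclear receptor families were each led by a small number of members. Their counts stand against 72.1% of all listed genes at 1 FPKM or more. Of 17 listed Sox genes 14 reached 1 FPKM, and Sox4, a factor of precursor survival, was at 72.2, 75 and 87.7 FPKM. Foxk2 led the Fox family at 30.9, 31.3 and 34.5 FPKM, and 15 of 27 listed members reached 1 FPKM. Foxm1, a factor of mitotic genes, was at 24.8, 19.3 and 34.2 FPKM. Klf3 led the Krueppel-like family at 16.7, 23.8 and 25.9 FPKM. Among nuclear receptors Nr2f1, an orphan receptor of the developing cortex, came after Thra at 38.1, 36 and 41.5 FPKM, and 22 of 38 listed members reached 1 FPKM.

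The cells expressed genes of DNA replication and mitosis. All 28 cell division genes reached 1 FPKM and 27 reached 10, against 72.1% and 43.0% of all listed genes. Pcna, the sliding clamp of DNA polymerase, was at 259, 219 and 390.3 FPKM. Top2a, the mitotic topoisomerase, was at 131, 92.5 and 154 FPKM, and Rrm2, which makes deoxynucleotides, at 89.6, 74.4 and 171 FPKM. Replicate 3 was highest for all 28 genes, against 45.9% of all genes at that depth, and replicate 2 was lowest for 27, against 37.2%. The summed level was 1320.2, 1049 and 1951 FPKM.

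Genes of G1 showed D cyclins together with cell cycle inhibitors. Cdk4, the kinase of the D cyclins, was at 283, 298 and 306 FPKM, Ccnd2 at 254, 171 and 339.5 FPKM and Ccnd1 at 108, 178 and 171 FPKM. Ccnd2 exceeded Ccnd1 in replicates 1 and 3 but not in replicate 2, with ratios of 2.36, 0.963 and 1.98. Among inhibitors, Cdkn1a (p21) was at 49.2, 65.3 and 58.2 FPKM, and Cdkn1c (p57) at 9.51, 3.67 and 20.1 FPKM. Cdkn1c was lowest in replicate 2 and highest in replicate 3, and Cdkn2b (p15), at 5.2, 13.8 and 5.42 FPKM, was highest in replicate 2.

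Among receptor tyrosine kinases Pdgfra had the highest mean, though Ntrk2 and Ddr1 exceeded it in replicates 1 and 2. Of 51 listed kinases 30 reached 1 FPKM, 16 reached 10 and none reached 100 on average. The shares over all listed genes were 72.1%, 43.0% and 4.29%. Ntrk2, the receptor of brain-derived neurotrophic factor, was at 73.6, 96.1 and 33.8 FPKM, lowest in replicate 3 where Pdgfra was highest. Ddr1, a collagen receptor, was at 63.5, 67.7 and 44.3 FPKM, and Fgfr1, a fibroblast growth factor receptor, at 34, 40.2 and 28.8 FPKM. Erbb3, a neuregulin receptor, was low at 0.14, 0.97 and 0.16 FPKM. Replicate 3 was lowest for 15 of the 26 kinases with enough counts, against 28.2% of all genes at that depth.

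Of 32 receptors for morphogens and Notch ligands 25 reached 1 FPKM and 9 reached 10, where 72.1% and 43.0% of all listed genes did. Bmpr1a, a type I receptor for bone morphogenetic proteins, was at 56.5, 32.6 and 48 FPKM, Notch1 at 40.6, 33.2 and 34.8 FPKM, and Smo, the signal transducer of hedgehog, at 21.8, 23.4 and 20.1 FPKM. Bmpr1a was lowest in replicate 2, the library in which Id3 and Bmp4 were also lowest. Among the Frizzled receptors of WNT ligands, Fzd3 was highest at 25.8, 24.5 and 21.3 FPKM.

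Most G protein-coupled receptor genes were low and a small number were abundant. Of 270 listed genes with that term in the deposited annotation, 76 (28.1%) reached 1 FPKM, where 72.1% of all listed genes did. In a chosen list of 68 receptors, 64 were listed, 32 reached 1 FPKM, 16 reached 10 and 2 reached 100. The shares over all listed genes were 43.0% at 10 FPKM and 4.29% at 100. Ednrb, the endothelin B receptor, had the highest mean, at 158, 115 and 100.3 FPKM, followed by Gpr17, which exceeded it in replicate 3. Adgrg1 (GPR56), an adhesion receptor that keeps progenitors dividing, was at 107, 84.4 and 74.3 FPKM, and F2r, the thrombin receptor, at 45.5, 41.4 and 48 FPKM. S1pr3, a sphingosine-1-phosphate receptor, was at 6.16, 21.9 and 0.45 FPKM, and replicate 2 exceeded replicate 3 by 48.6 times. Lpar1, a receptor of lysophosphatidic acid that rises with differentiation, was at 2.07, 4.17 and 1.02 FPKM.

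Glutamate receptor subunits were led by members of the AMPA and kainate classes. Gria2, the subunit that makes AMPA receptors impermeable to calcium, was at 53.6, 59.4 and 79.9 FPKM, and Gria4 at 12.1, 12.6 and 19.3 FPKM. The kainate subunits Grik5 and Grik3 were at 28.2, 25 and 29 FPKM and 25.6, 24.2 and 28.1 FPKM. Grin1, the obligatory NMDA subunit, was at 3.3, 3.49 and 3.61 FPKM, so Gria2 exceeded it by 18.5 ± 3.20 times in FPKM. Grin3a, a modulatory NMDA subunit, was at 7.1, 4.65 and 18.1 FPKM, highest in replicate 3.

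The receptor of interleukin-10 was near the lower end of the profile. Il10ra, which encodes the chain that binds the cytokine, was at 0.09, 0.06 and 0.03 FPKM, values that rest on 3, 2 and 1 expected counts. Il10rb, the shared second chain, was at 1.17, 1.58 and 1.13 FPKM, from 21, 28 and 20 expected counts. In contrast Stat3, the factor that the receptor activates, was at 82.9, 71 and 49.8 FPKM, with Jak1 at 35.8, 37.8 and 28.1 FPKM. Tyk2, the kinase bound to Il10rb, was at 5.37, 4.52 and 5.25 FPKM. Stat3 and Jak1 were both lowest in replicate 3.

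Some other cytokine receptors were above the interleukin-10 chains and some were not. Of 31 listed genes 20 reached 1 FPKM and 9 reached 10, against 72.1% and 43.0% of all listed genes. Tnfrsf21 (DR6) was highest at 46.3, 39.7 and 33.2 FPKM, Il1rap, the interleukin-1 receptor accessory chain, was at 22.4, 40.9 and 25.3 FPKM, and Il6st (gp130) at 32.7, 24.1 and 20.1 FPKM. Osmr, the oncostatin M receptor, was at 2.72, 6.52 and 0.11 FPKM and Il6ra at 0.49, 4.08 and 0.06 FPKM. Both were highest in replicate 2 and lowest in replicate 3, where they were below Il10rb.

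Ligands included factors with known actions on the lineage. Ptn, pleiotrophin, a ligand of PTPRZ1, was the highest gene with a growth factor term at 603, 427 and 539 FPKM. Hbegf, a ligand of the epidermal growth factor receptor, was at 23.2, 87.4 and 22.5 FPKM, highest in replicate 2. Pdgfa, the ligand of PDGFRA, was itself present at 18.1, 17.7 and 11.2 FPKM, and Vegfa at 15.9, 22.8 and 14.8 FPKM. Of 109 listed growth factor genes 45 reached 1 FPKM, where 72.1% of all listed genes did. Cx3cl1, the ligand of the microglial receptor CX3CR1, was at 20.1, 39.5 and 16.4 FPKM.

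The collagen list was dominated by 1 gene in FPKM. Col19a1 held 95.1%, 96.1% and 97.4% of the summed FPKM of the 44 listed collagen genes. It had the most expected counts of any gene, with 1.65%, 1.63% and 1.45% of each library. Its 11 transcripts in the deposited annotation included 4 marked as new by their identifiers. The gene-level values cannot show which part of the locus, or which strand, the counts came from. The next collagen, Col11a1, was at 51.8, 21.9 and 22.4 FPKM, and 23 of the 44 stayed under 1 FPKM on average. Col1a1 and Col3a1, fibrillar collagens of fibroblasts, were at 0.24, 0.19 and 0.47 FPKM and 0.66, 0.09 and 0.32 FPKM.

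The Col19a1 promoter is shown as that of the most counted gene. It lies on build GRCm38.p6 at chr1:24587388-24587687 on the minus strand.
Col19a1: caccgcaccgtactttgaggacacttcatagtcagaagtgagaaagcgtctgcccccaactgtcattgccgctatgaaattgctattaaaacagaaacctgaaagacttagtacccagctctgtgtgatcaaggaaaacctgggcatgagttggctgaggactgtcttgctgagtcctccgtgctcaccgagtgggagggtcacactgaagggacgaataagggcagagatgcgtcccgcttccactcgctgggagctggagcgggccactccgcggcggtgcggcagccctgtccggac
It had 56.3% G and C with 16 CpG, and none of the 4 motifs was found in these 300 bases.

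Most collagens were lowest in replicate 3. Of 19 collagens with enough counts, Col19a1 among them, 12 spread by 2 times or more, against 6.40% of all genes at that depth. Replicate 3 was lowest for 13 of the 19, against 28.2%. Col4a5 and Col4a6, chains of basement membrane collagen, were at 19.8, 16.5 and 4 FPKM and 8.44, 5.87 and 1.02 FPKM. Col6a2 was at 1.45, 2.11 and 0.14 FPKM, and Col20a1 at 4.67, 3.45 and 0.92 FPKM. Each was lowest in replicate 3. Col19a1 was lowest there as well, though by 1.14 times.

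Several proteoglycans of the brain matrix were abundant. Ncan, neurocan, was at 836, 523 and 570.0 FPKM, ahead of Ptprz1 and Bcan, and Tnr, the glycoprotein tenascin-R, was at 134, 86.2 and 89.3 FPKM. Neurocan exceeded Vcan (versican) by 45.3, 27.6 and 18.9 times in FPKM. Cd44, the hyaluronan receptor, was at 46.1, 76.4 and 14.1 FPKM, lowest in replicate 3. Of 32 listed genes of this class 23 reached 1 FPKM and 16 reached 10, against 72.1% and 43.0% of all listed genes. Their median was 10.3 FPKM, so the class as a whole was not high.

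Glycoproteins, integrins and proteases completed the matrix. Sparcl1 was the highest glycoprotein gene at 501, 524 and 293 FPKM, with Sparc at 98.5, 117 and 40.8 FPKM. Fn1, fibronectin, was at 35.3, 28.2 and 6.91 FPKM, and Lamc1, the shared gamma chain of laminins, at 47.6, 53.6 and 32.9 FPKM. Itgb1 led the integrins at 160.1, 167 and 170.2 FPKM, nearly level across libraries, while Itga6, an alpha chain for laminin, was at 23.7, 16.3 and 39.4 FPKM and Itga5, one for fibronectin, at 8.76, 19.9 and 2.92 FPKM. Mmp15, a membrane-bound protease, was at 47.8, 56.6 and 88.3 FPKM. The inhibitors Cst3, cystatin C, and Serpine2, protease nexin 1, were at 801, 794 and 439 FPKM and 266, 216 and 361 FPKM.

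**Figure D3:**
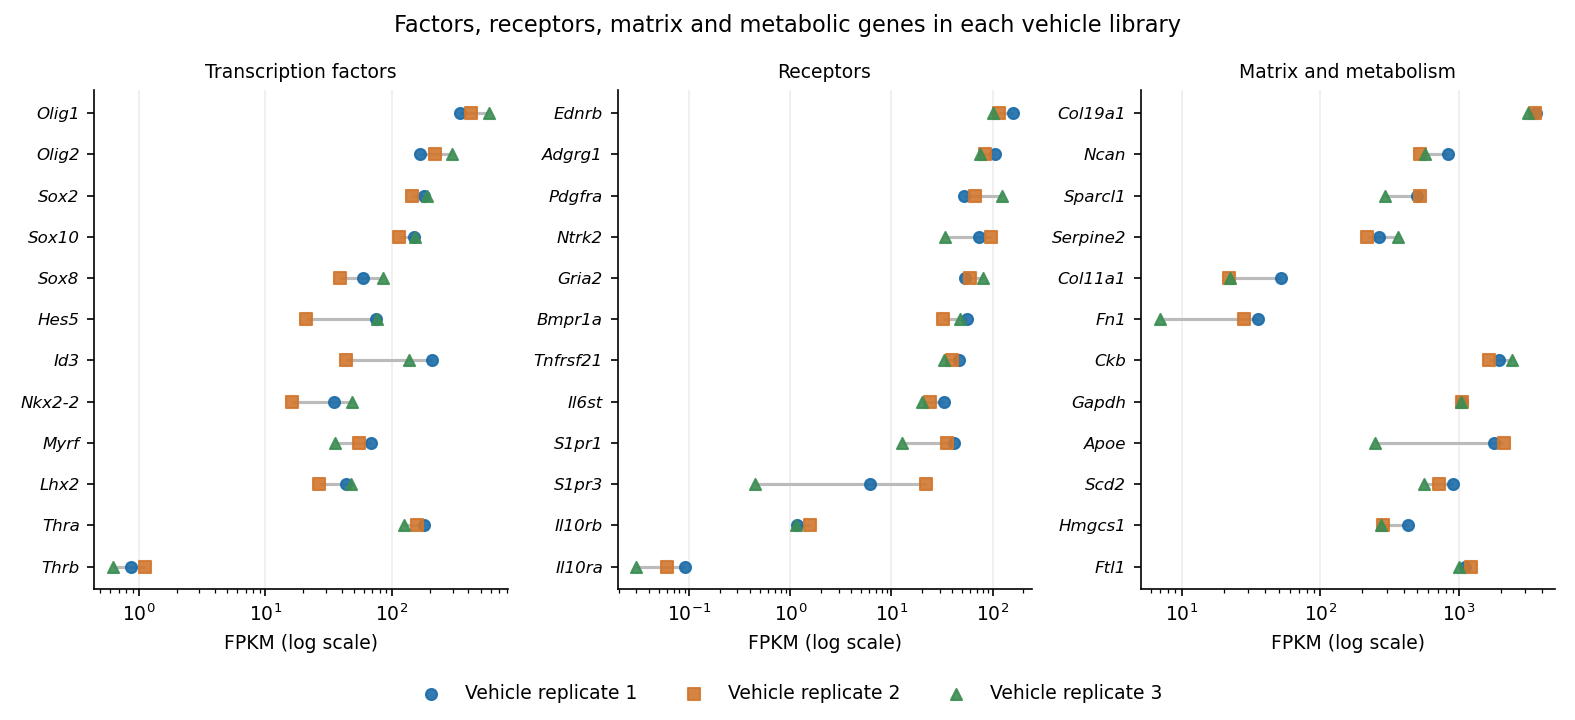
FPKM on a log scale of 12 transcription factors, 12 receptors and 12 matrix or metabolic genes in each of the 3 vehicle libraries, 1 point per library, with grey lines from the lowest to the highest. Olig1 and Olig2 are lowest in replicate 1, Hes5 and Id3 are lowest in replicate 2, and S1pr3, Fn1 and Apoe are lowest in replicate 3.

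Many genes of central carbon metabolism were high in all 3 libraries. Glycolysis was led by Gapdh, Eno1, an enolase, at 524, 515 and 528 FPKM, and Pkm, pyruvate kinase, at 448, 455 and 467 FPKM. Of its 29 listed genes 24 reached 1 FPKM, 17 reached 10 and 11 reached 100, against 72.1%, 43.0% and 4.29% of all listed genes. Ldha, the lactate dehydrogenase chain that favours lactate, was at 305, 265 and 305 FPKM, and exceeded Ldhb by 2.49, 2.04 and 3.10 times in FPKM. Aldoc, the aldolase of astrocytes, varied more, at 195, 114 and 49.5 FPKM, lowest in replicate 3. It was 1 of 2 among the 23 members with enough counts that spread by 2 times or more, against 6.40% of all genes. For the citrate cycle 26 of 28 genes reached 10 FPKM, against 43.0% of all listed genes, led by Mdh2, malate dehydrogenase, at 247, 273 and 273 FPKM. The median spread was 8.44% of the mean for the citrate cycle and 13.7% for glycolysis, against 11.5% over the 9824 genes.

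Sterol and fatty acid synthesis were high, and highest in replicate 1. Scd2, the stearoyl-CoA desaturase of the brain, was at 904, 716 and 561 FPKM, and Fads2, a desaturase of polyunsaturated fatty acids, at 206, 158 and 133 FPKM. Hmgcs1, which commits acetyl units to sterols, was at 431, 282 and 272 FPKM, and Fdps, a later enzyme of the same pathway, at 211, 137 and 143 FPKM. Replicate 1 was highest for 24 of 27 genes of cholesterol synthesis and handling, against 24.9% of all genes. Apoe, Hsd17b7, at 17.4, 30.3 and 8.57 FPKM, and Npc2 were the 3 exceptions, highest in replicate 2.

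Creatine, serine and glutamate genes stood out among the other pathways. Ckb was at 1944, 1634 and 2415 FPKM, highest in replicate 3, and Slc1a3, the glutamate transporter GLAST, was at 514, 474 and 441 FPKM. Phgdh and Psat1, the first enzymes of serine synthesis, were at 164, 200.2 and 146 FPKM and 148, 149.6 and 164 FPKM. Slc7a11, the cystine transporter, was low at 1.75, 3.71 and 1.92 FPKM. Of 30 listed genes of this class 25 reached 10 FPKM, where 43.0% of all listed genes did.

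Genes of iron storage exceeded those of heme breakdown. The ferritin chains Ftl1 and Fth1 were at 1098, 1229 and 1001 FPKM and 617, 576 and 422 FPKM. Hmox1, the inducible heme oxygenase, was at 27.1, 39.5 and 17.6 FPKM, and Hmox2, the constitutive one, at 36.2, 31.4 and 41.6 FPKM. Hmox1 exceeded Hmox2 in replicate 2 only, with Hmox2 to Hmox1 ratios of 1.34, 0.795 and 2.36. Trf, transferrin, a gene of mature oligodendrocytes, was at 10.8, 11.9 and 4.67 FPKM. Slc40a1, the iron exporter ferroportin, was at 0.06, 0.06 and 0.03 FPKM.

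Peroxide defence was led by Sod1, the cytosolic superoxide dismutase, at 301, 351 and 368 FPKM. The peroxiredoxins Prdx1 and Prdx2 were at 228, 254 and 227 FPKM and 236, 216 and 228 FPKM, and Gpx4, which reduces lipid peroxides, at 225, 227 and 218 FPKM. All 3 of these differed by less than 1.2 times between libraries. Gstm1, a glutathione transferase, was at 243, 229 and 113 FPKM, lowest in replicate 3, and Srxn1, sulfiredoxin, at 17.1, 34.8 and 12.1 FPKM, highest in replicate 2. Of 30 genes 29 reached 1 FPKM, where 72.1% of all listed genes did.

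Early response genes were at low to moderate level. Jun was at 33.7, 69.4 and 40.4 FPKM, Egr1 at 3.69, 19.7 and 25 FPKM, and the stress factor Atf4 at 64, 85.3 and 69 FPKM. Egr1 was lowest in replicate 1, which the other two exceeded by 5.35 and 6.77 times. Dlk1, a membrane protein with epidermal growth factor repeats, was at 30.1, 46.3 and 71.6 FPKM, in the library order of Olig1 and Pdgfra. Its values rest on 9 transcripts, 2 of them marked as new by their identifiers.

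Transcripts of astrocytes were abundant in 2 of the 3 libraries. Gfap, the intermediate filament of astrocytes, was at 1059, 889 and 15.1 FPKM. Its level in replicate 1 was 70.1 times that in replicate 3, and in replicate 2 it was 58.9 times. Replicate 3 still held 382 expected counts of it. Aqp4, the water channel of astrocytic endfeet, was at 52.1, 32 and 5.24 FPKM, Mlc1, an astrocyte membrane protein gene, at 163, 140.2 and 73.7 FPKM, and Aldh1l1, a folate enzyme used as a pan-astrocyte marker, at 185, 102 and 47.9 FPKM. Slc1a3, which progenitors also express, differed by only 1.17 times.

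Over the astrocyte list, 17 of 19 genes reached 1 FPKM and 6 reached 100, against 72.1% and 4.29% of all listed genes. Replicate 3 was lowest for 14 of the 16 with enough counts, against 28.2% of all genes, and 10 of the 16 spread by 2 times or more, against 6.40%. Gjb6, a connexin of mature astrocytes, was at 0, 0.05 and 0 FPKM. The summed level was 3069, 2499 and 1094 FPKM, and without replicate 3 its mean was 2784 FPKM, against 2221 ± 1017 FPKM over all 3 (SD, n = 3). Without Gfap the sums were 2010, 1610 and 1079 FPKM. Of the 19 genes 5 are also held by a factor, receptor or metabolic list, Slc1a2, Slc1a3, Sox9, Aldoc and Fgfr3, and none of these 5 by the progenitor stage list. Clu, a member of the list, was at 74.1, 113 and 14 FPKM. Outside the list Apoe, Cd44 and Serpina3n, at 104, 40.1 and 1.46 FPKM, which astrocytes also make, were lowest in replicate 3 as well. Their part in the differences of progenitor and myelin genes between libraries was not tested.

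The Gfap promoter is shown because this gene had the highest ratio of highest to lowest library among the 695 genes of at least 100 FPKM. It lies on build GRCm38.p6 at chr11:102897151-102897450 on the minus strand.
Gfap: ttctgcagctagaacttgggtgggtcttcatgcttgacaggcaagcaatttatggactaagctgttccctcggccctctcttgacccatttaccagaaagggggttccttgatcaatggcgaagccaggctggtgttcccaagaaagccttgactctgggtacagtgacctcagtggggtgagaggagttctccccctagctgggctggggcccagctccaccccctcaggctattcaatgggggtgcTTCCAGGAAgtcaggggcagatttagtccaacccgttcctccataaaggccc
The window held 1 STAT match, TTCCAGGAA, starting 2 bases before the start, and no E-box, SOX or TATA match. Of the 20 promoters found for 15 of the 19 astrocyte genes, 5 (25%) held the STAT motif, against 8.30% of all promoters, a description over 5 promoters with no test. Of the 21 promoters of 19 progenitor stage genes 1 held it, and of the 37 promoters of 27 myelin genes 3 did.

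Microglial transcripts were present at low level. Lyz2, a lysozyme of macrophages, had the highest mean, at 33.2, 18.4 and 6.76 FPKM. The complement gene C1qa was at 4.27, 6.14 and 1.75 FPKM, Csf1r at 0.82, 0.97 and 0.35 FPKM and Cx3cr1 at 0.6, 1.24 and 0.4 FPKM. Tmem119, a defining marker of resident microglia, was at 0, 0 and 0.1 FPKM, and Siglech was not listed. The sum over 21 listed genes was 99.4, 90.0 and 42.3 FPKM, lowest in replicate 3.

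Several genes of radial glia were high, though some of the list are not particular to that cell type. Fabp7 and Vim, an intermediate filament gene at 986, 1219.9 and 616 FPKM, led this list of 12. Hopx, a marker of outer radial glia and astrocytes, was at 118, 55.3 and 70.2 FPKM, and Eomes, a marker of intermediate neuronal progenitors, at 0.22, 0.06 and 0 FPKM. Of the 12 genes 5 also stand on another list, Sox2, Pax6, Slc1a3, Tnc and Nr2e1, though none of them on that of the progenitor stage. Fabp7 and Vim were not among these 5.

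Neuronal transcripts were mixed in level. Map2, a microtubule protein that oligodendroglia also make, was at 144, 118 and 172 FPKM, and Dcx, a gene of migrating young neurons and of some progenitors, at 23.2, 17.9 and 20.3 FPKM. Between them in mean level lay Tubb3, at 51.2, 44.55 and 25.2 FPKM, and Elavl3, at 40.1, 47.9 and 30.3 FPKM. Both of these were lowest in replicate 3, where Map2 was highest. Rbfox3 (NeuN), the marker of mature neurons, was at 0.87, 1 and 0.39 FPKM, so Map2 exceeded it by 165, 118 and 440.3 times in FPKM. Stmn2 was at 18.3, 9.38 and 2.73 FPKM, highest in replicate 1. The glutamate transporter genes of excitatory neurons, Slc17a7 and Slc17a6, stayed under 1 FPKM in each library.

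Markers of vascular, meningeal, ependymal and blood cells were low. Summed over the endothelial list the level was 4.93, 4 and 3.46 FPKM, with Sox17 and Tie1 not listed. The mural list summed to 22.4, 11.5 and 12.3 FPKM, led by Notch3 at 10.1, 5.43 and 3.86 FPKM and Tagln at 5.53, 3.39 and 6.25 FPKM. The fibroblast and meningeal list summed to 2.46, 2 and 1.85 FPKM and the ependymal and choroid plexus list to 5.25, 4.05 and 3.27 FPKM. Of 13 erythroid and lymphoid genes 9 were not listed, and the others summed to 0.48, 0.21 and 0.21 FPKM. The Y-linked genes Eif2s3y, Ddx3y, Kdm5d and Uty were present in all 3 libraries, Eif2s3y at 20.1, 24.1 and 29.9 FPKM.

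**Figure D4:**
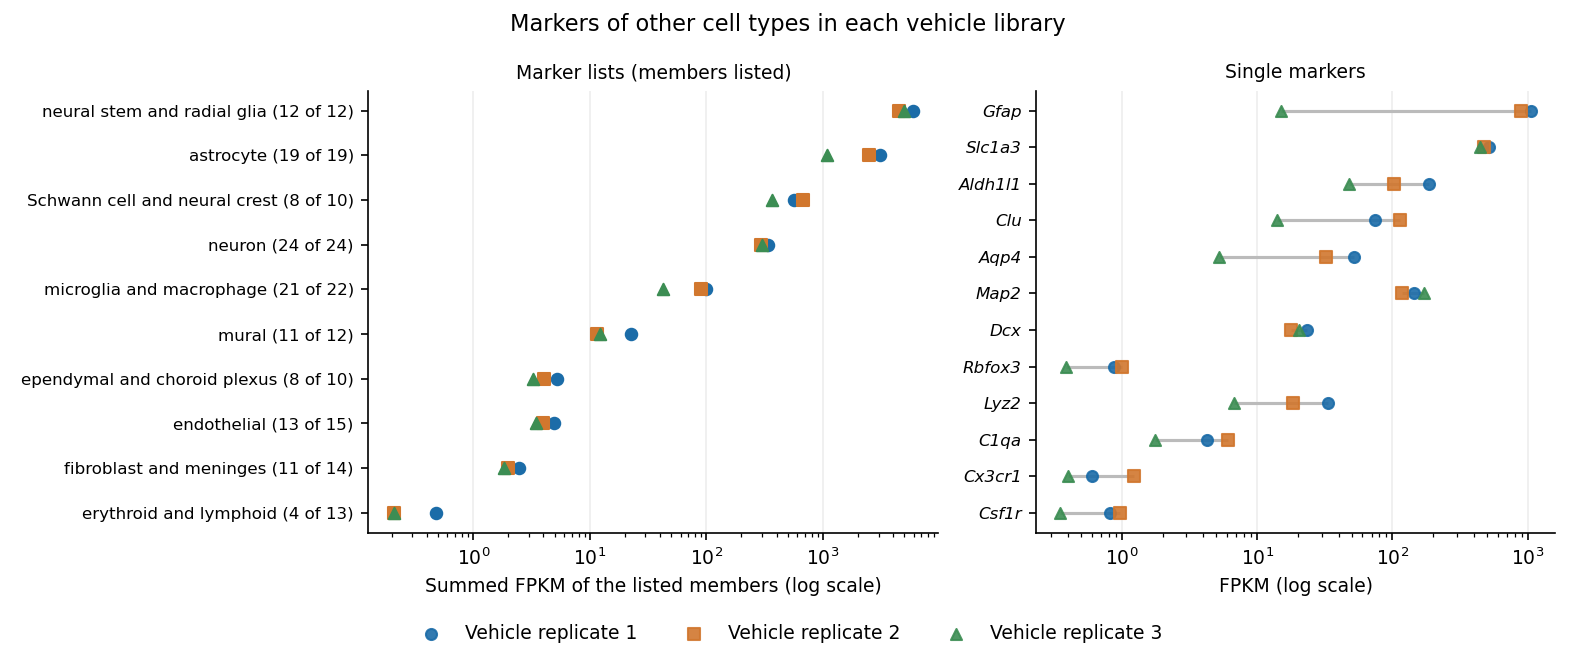
Left, summed FPKM on a log scale of 10 marker lists of other cell types in each vehicle library, with the number of members listed; right, FPKM of 12 single markers. Gfap spans 15.1 to 1059 FPKM, with replicate 3 lowest, whereas Slc1a3 is nearly level and the vascular and blood lists sum to under 30 FPKM.

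Across genes the 3 libraries had a common biological coefficient of variation of 19.7%, estimated by edgeR from 12306 genes. The median coefficient of variation of FPKM was 11.5% over the 9824 genes with at least 100 expected counts on average. Of these genes 629 spread by 2 times or more, and replicate 3 was lowest for 338 of them, replicate 2 for 208 and replicate 1 for 83. The number depended on the library left out. It was 145 between replicates 1 and 2, 328 between replicates 1 and 3, and 460 between replicates 2 and 3. The coefficient of variation was 15.4% without replicate 3, 20.5% without replicate 2 and 22.9% without replicate 1.

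Of the 10 genes with the widest spread at that depth, 6 were highest in replicate 2 and 4 in replicate 1, and 9 were lowest in replicate 3. Clcf1, a cytokine of the ciliary neurotrophic factor family, was at 3.38, 20.2 and 0.99 FPKM, and Thsd4, a matrix gene with thrombospondin repeats, at 1.34, 6.83 and 0.53 FPKM. S1pr3, Osmr and Serpina3n, given above, were among them, as was Padi2, a citrullinating enzyme of oligodendrocytes, at 1.8, 5.56 and 0.66 FPKM. Zfp968 was at 0.15, 5.43 and 0.35 FPKM. The narrowest were genes such as Armc8 at 12.8, 12.8 and 12.8 FPKM, Prdm2 at 15.3, 15.4 and 15.3 FPKM and Kif5b, a kinesin heavy chain gene, at 69.6, 69.7 and 69.5 FPKM.

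By list, the median deviation of a library from the mean on the log2(FPKM + 1) scale differed between lists. Replicate 3 was above the mean for cell division (0.48) and the progenitor stage (0.32) and below it for astrocytes (-0.67), myelin (-0.52) and collagens (-0.44). Replicate 2 was above it for myelin (0.30) and collagens (0.28) and below it for cell division (-0.41) and the progenitor stage (-0.21). Replicate 1 was above it for astrocytes (0.50), cholesterol (0.28), collagens (0.28) and the committed precursor stage (0.21). Over all 9824 genes the medians were -0.02, -0.02 and 0.04 for replicates 1, 2 and 3.

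**Figure D5:**
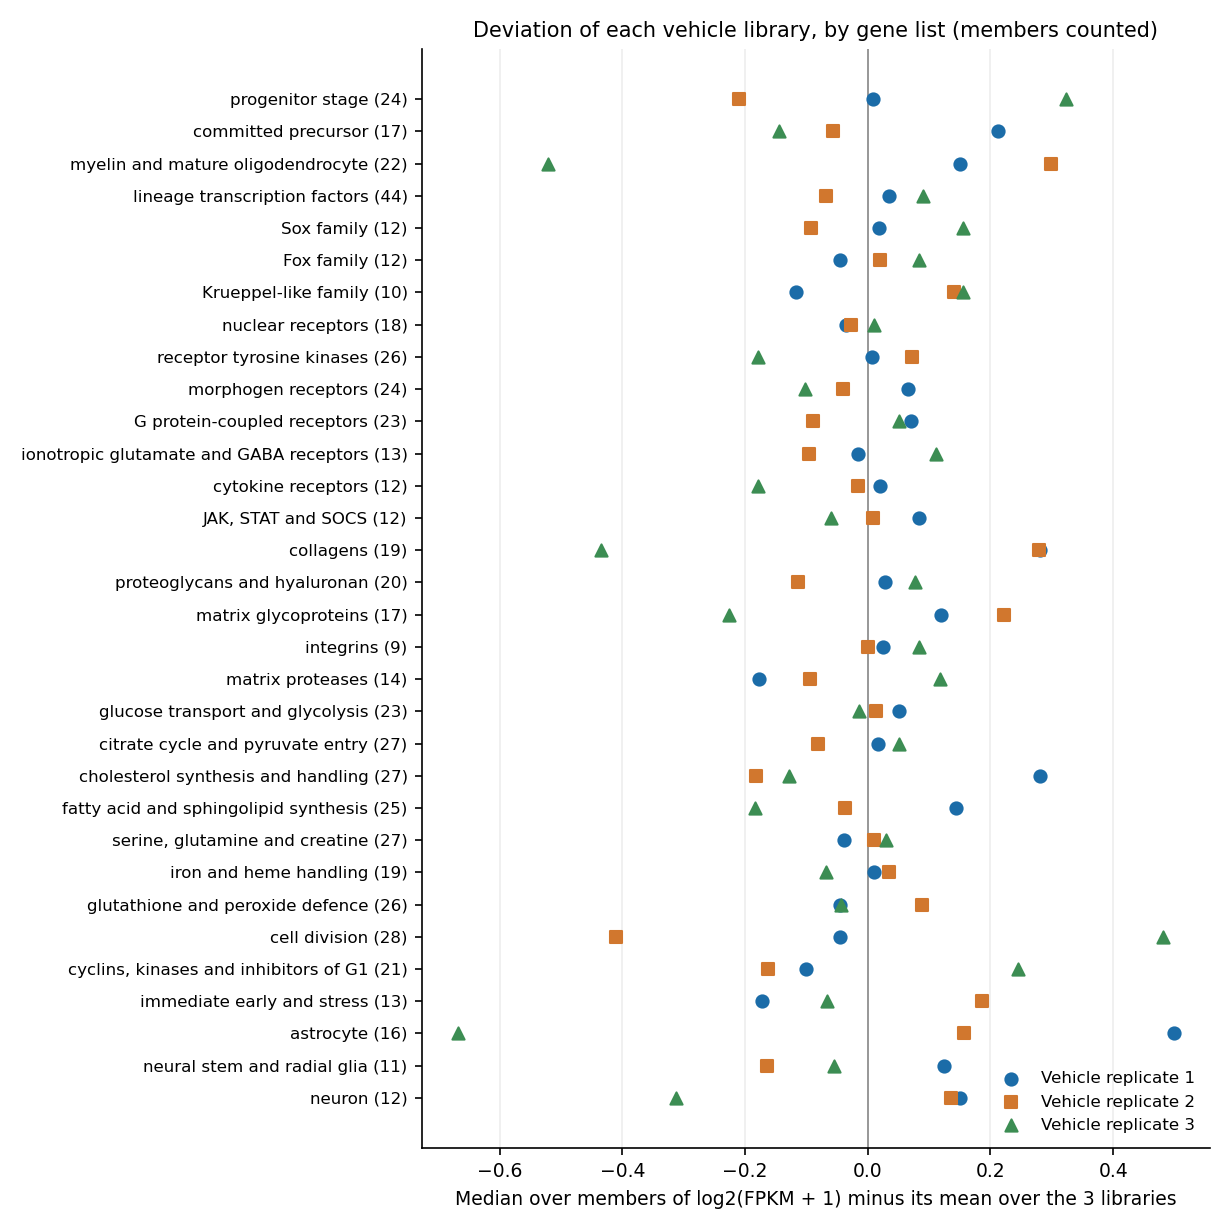
Median over the members of each list of log2(FPKM + 1) minus its mean over the 3 vehicle libraries, 1 point per library, with the number of members that had at least 100 expected counts on average. Replicate 3 is at 0.48 for cell division and at -0.67 for astrocytes, and glycolysis and citrate cycle genes lie close to 0 in all 3 libraries.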

How the data were processed

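Total RNA of 3 vehicle libraries was made into dUTP-marked cDNA libraries and read as DNA nanoballs, per the labels' protocols. Tools listed in the submitters' processing notes, without versions or roles, are RSEM, Bowtie2, StringTie, Cufflinks, HISAT, TopHat, Bowtie and CASAVA. No source used here gives the genome build or annotation. The deposited expected counts are, per the file headers, estimated reads per gene that are partly fractional and not normalised. The deposited FPKM values are, per the file headers, scaled by the authors for transcript length and library depth. The length column was used as deposited. Genes that a file does not list were set to 0 in that library, and the shortest listed gene measured 322 bases. Whether counting used strand is not stated, so antisense or overlapping genes cannot be told apart. Of the listed symbols, 99.3% matched the supplied gene table.

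Genes were ranked by mean FPKM, and 44 gene lists were described by counts, sums, and medians of log2(FPKM + 1). Spread was examined over genes with at least 100 expected counts on average, with a threshold of 2 times between the highest and the lowest library. The members and lists were chosen with earlier results of these data known. The rule for named genes took the 30 highest genes outside the ribosomal proteins with at least 50 expected counts in each library, the 5 highest and up to 3 widely spread members of each list, the 10 genes with the widest and the 10 with the narrowest spread, and a small set of lineage, cytokine and heme genes. Predicted genes were left out. A small number of genes that the rule names are not reported here. Some stage-defining, ligand and cell type genes outside that rule, such as Mog, Bmp4, Myrf, Ptn, Rbfox3 and Tmem119, were named after their values were seen. Rounded expected counts of the 3 libraries gave the common biological coefficient of variation in edgeR 4.0.16 (R 4.3.3), with filterByExpr, TMM factors and an intercept only. The estimate was tested on simulated data. Other scalings, thresholds, filters and library sets were tried, DESeq2 size factors (1.42.0) among them. Promoter sequences are from RefSeq on build GRCm38.p6. Tables were made with pandas 2.3.3.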

Additional observations from a re-analysis of the deposited data

How the results depend on the processing

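No paired analysis was possible because a single group was analysed. The number of genes with a mean of at least 1 FPKM was 11717 to 11786 when each library was left out in turn. It was 12509 and 10887 at thresholds of 0.5 and 2 FPKM, and 11621 with at least 10 expected counts in each library. By expected counts, which do not correct for length, the 100 highest genes held 15.2% of the total, against 23.0% by FPKM. Without the highest member, the mean summed FPKM was 1312 for the progenitor stage, 1220 for committed precursors, 1438 for myelin, 1910 for radial glia, 167 for neurons, 2.46 for endothelium, 8.94 for mural cells, 1.64 for fibroblasts and meninges, 2.60 for ependyma and choroid plexus, 169 for Schwann cells and neural crest, and 15.0 for sex-linked genes. For astrocytes that mean fell from 2221 to 1566 FPKM without Gfap, and for microglia it was 57.8 FPKM without Lyz2. The biological coefficient of variation was 15.4% to 22.9% when each library was left out, 21.0% with no count filter, and 19.7% with DESeq2 size factors. TPM and TMM scaling changed which library was highest or lowest in summed level for 8 of 44 lists, among them regional identity, integrins and the citrate cycle. The means of the 318 named genes all stayed within 1 SD. That check could hardly fail, as the TMM factors were 0.988, 0.990 and 1.02 and TPM means were brought back by a constant. At a threshold of 3 times, chosen after seeing the data, 176 genes spread between libraries. The number of libraries, 3, limits the precision of every SD.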

Other observations

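Among the 695 genes of at least 100 FPKM on average, predicted genes left out, 26 spread by 2 times or more, and replicate 3 was lowest for 21 of them and replicate 2 for 5. The genes in this paragraph were named after their values were seen. Mt2 and Mt3, metallothioneins that bind zinc and copper, were at 245, 307 and 73.9 FPKM and 509, 564 and 273 FPKM. Dhrs1, a short-chain dehydrogenase gene, was at 278, 171 and 52.7 FPKM, Mmd2 at 168, 96.5 and 57.0 FPKM, and Prdx6, a peroxiredoxin, at 145, 128 and 56.8 FPKM. Cpe, a carboxypeptidase of secreted peptides, was at 302, 430.1 and 182 FPKM, and Ctsb, a lysosomal protease, at 217, 219 and 108 FPKM. All of these were lowest in replicate 3, as Gfap, Apoe and Mbp were. Vxn and Id3 were lowest in replicate 2, Vxn at 111, 44.4 and 156 FPKM. Mest, an imprinted gene, was at 85.0, 62.6 and 159.9 FPKM, lowest in replicate 2 and highest in replicate 3.

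A few other genes were high or low in 1 library. Spry1, a feedback inhibitor of receptor tyrosine kinases, was at 12.5, 15.9 and 54.5 FPKM, so replicate 3 held 4.37 times the level of replicate 1 and 3.42 times that of replicate 2. C4b, a complement gene, was at 8.07, 6.25 and 0.23 FPKM, low in replicate 3 alone. Hbegf and Clcf1 were highest in replicate 2. The cause of these differences was not tested.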
